A study of Mus musculus with 6 samples.

Results

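Genes of airway cartilage other than collagens were followed on 6 Affymetrix mouse gene arrays of larger proximal airways. The 10 genes were the matrix genes Acan, Hapln1, Matn1, Matn3, Comp and Chad, the chondrocyte genes Snorc, Ucma and Cytl1, and the transcription factor gene Sox9. Each was taken from the row of the value table that the platform annotation assigns to that symbol alone, with the highest mean row where a gene had several. All 10 were found, each in a single row, among 19938 genes named in this way. The first group, called mutant, held 3 arrays from Scgb1a1-cre:Foxp1flox/flox:Foxp4flox/flox mice, and the second, called control, held 3 arrays from Scgb1a1-Cre mice. Both groups carried the Cre driver, came from 9-week-old animals and had the strain Mix C57BL/6 and 129X1. Airways were dissected with forceps and scissors out of stained frozen sections of lung, and the study asked what the airway epithelium contributes to asthma. The labels do not say that each array came from a separate mouse, so the p-values cover only the spread among these arrays, part of which may be technical.

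Cartilage is an avascular tissue in which chondrocytes sit in a matrix of collagen fibrils and aggrecan, a proteoglycan that binds hyaluronan and holds water. The transcription factor SOX9 switches on most genes of that matrix. In the mouse, cartilage rings or plates stiffen the trachea and main bronchi, and airways inside the lung have little or none. The Scgb1a1 promoter drives genes in epithelial club cells, so chondrocytes are not a cell type in which the driver is known to act.

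Each array gave 35556 log2 expression values with lower quartiles between 4.42 and 4.50 and upper quartiles between 7.83 and 7.89. Foxp1 read 9.24, 9.34 and 9.31 in mutants and 9.42, 9.62 and 9.55 in controls, and Foxp4 read 8.41, 7.77 and 8.49 in mutants and 8.77, 9.01 and 8.95 in controls. All mutant arrays lay below all control arrays for both targeted genes, with log2 differences of -0.23 and -0.69 that did not pass limma's test (adjusted p = 0.444 and 0.339). Mutants lay wholly below controls for 5.64% of all genes. Where the probe sets lie relative to the floxed exons was not checked, so these readings check the labels only in part. With all 6 arrays, 53 of 19938 genes passed limma's test at a Benjamini-Hochberg adjusted p of 0.05, which is 0.266% of them. As a check of the labelled tissue, the 6 club cell markers averaged between 11.90 and 12.02 on the mutant arrays and between 11.77 and 11.97 on the control arrays. Alveolar markers were high too. The alveolar type 2 list averaged 11.05 to 11.22 in mutants and 10.81 to 10.99 in controls, with every mutant above every control. The type 1 list averaged 9.79 to 9.97 and 9.36 to 9.89. The check therefore does not tell proximal airway from other lung tissue.

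None of the 10 cartilage genes passed limma's test of mutant against control airways after Benjamini-Hochberg adjustment over all genes. At an unadjusted p under 0.05 the count was 0 of 10 as well, where 10.1% of all genes lay under that value. The adjusted p ranged from 0.508 for Chad to 0.977 for Sox9. The median log2 difference of the 10 genes, mutant minus control, was -0.09, against 0.02 for all genes. The mutant mean lay below the control mean for 8 of them, as it did for 45.4% of all genes. Chad, with its high mutant readings, and Hapln1, with groups that did not overlap, had the smallest p-values.

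Among the aggrecan genes, Acan encodes the core protein of aggrecan. It read 4.55, 4.40 and 4.41 in mutant airways, against 5.95, 4.29 and 4.51 in control airways. Control 1 stood 2.63-fold above the next array, mutant 1, while controls 2 and 3 lay around the mutants. The mutants averaged 4.46 ± 0.08 (SD, n = 3) and the controls 4.92 ± 0.90, a log2 difference of -0.46 (SE 0.42, limma adjusted p = 0.798). The 95% interval of that difference ran from -1.46 to 0.53. Hapln1 encodes the link protein that fastens aggrecan to hyaluronan. Its readings were 4.19, 4.03 and 4.30 in mutants, against 4.91, 4.38 and 4.34 in controls. The groups did not overlap, with all mutants lower, and mutant 3 and control 3 were 0.04 apart. The log2 difference was -0.37 (SE 0.17, limma adjusted p = 0.545), and the exact permutation p (two-sided, 20 splits of the arrays) was 0.1, the smallest possible. Groups did not overlap in this direction for 5.64% of all genes, so 1 of 10 is close to the background. Outside control 1, 6 of the 10 genes, Acan, Hapln1, Matn1, Matn3, Comp and Ucma, read between 4.03 and 4.84, close to the lower quartile, where RMA compresses differences. No detection calls were used here to say whether those signals were above background, so folds against them are approximate.

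The matrilins and Comp are adaptor proteins that link collagen fibrils with other matrix molecules. Matn1, whose product matrilin-1 is best known from tracheal and other non-articular cartilage, read 4.53, 4.22 and 4.55 in mutants and 4.57, 4.45 and 4.47 in controls. Matn3 read 4.46, 4.31 and 4.43 in mutants and 4.43, 4.37 and 4.29 in controls. Their groups overlapped, and both genes read close to the lower quartile on every array, where a small spread cannot be told apart from signal at background. Their log2 differences were -0.07 (95% interval -0.34 to 0.20) and 0.04 (95% interval -0.17 to 0.24). Comp, a thrombospondin of cartilage and tendon, read 4.70, 4.51 and 4.56 in mutants and 5.14, 4.48 and 4.45 in controls. Control 1 was the highest array for Comp by 0.44 on the log2 scale, and the other 2 controls lay below all mutants. The difference was -0.10 (SE 0.20, limma adjusted p = 0.926).

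Chad, which encodes chondroadherin, a leucine-rich repeat protein of cartilage matrix, was with Matn3 one of the 2 genes whose mutant mean lay above the control mean. It read 12.50, 11.95 and 12.55 in mutants, against 12.06, 11.86 and 11.84 in controls, all above the upper quartile of the arrays. This level was near the averages of the 6 club cell markers (11.77 to 12.02 over the arrays). Outside control 1, Acan, Hapln1, Matn1, Matn3, Comp and Ucma read only between 4.03 and 4.84. Which cells gave the Chad signal was not tested. For Chad, mutants 1 and 3 stood above all controls, and mutant 2 lay between control 1 and control 2. The mean was 12.33 ± 0.33 (SD, n = 3) in mutants and 11.92 ± 0.12 in controls, a 1.33-fold ratio and a log2 difference of 0.41 (SE 0.18, 95% interval -0.01 to 0.84). That difference did not pass limma's test (adjusted p = 0.508), and the exact two-sided permutation p was 0.2. Over the 15 other settings the difference lay between 0.30 and 0.68 and the adjusted p between 0.0197 and 0.839. It passed without control 1 and mutant 2 together, a setting in which limma called 4.83% of all genes. For Chad these arrays held the highest control and the lowest mutant reading. Leaving them out separates the groups beforehand, so that pass is no test of the difference.

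Marker lists of lymphocytes differed between the same arrays. The 6 B and plasma cell genes averaged 6.27, 8.55 and 6.64 in mutants, against 6.99, 10.39 and 10.30 in controls, and the 5 T cell genes averaged 5.81, 6.82 and 5.76 in mutants, against 6.30, 8.73 and 8.59 in controls. The 3 arrays with the highest lymphocyte values, controls 2 and 3 and mutant 2, were those with the lowest Chad values, and the part of lymphocyte content in the Chad readings was not tested. In such bulk samples fewer cells of a type and less RNA per cell cannot be told apart.

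The chondrocyte genes Snorc, Ucma and Cytl1 varied more between control arrays than between the groups. Snorc, which encodes a small transmembrane proteoglycan of chondrocytes, read 5.69, 5.20 and 5.64 in mutants and 5.97, 5.26 and 5.52 in controls. Its groups overlapped, with a log2 difference of -0.07 (95% interval -0.59 to 0.44). Ucma encodes a secreted vitamin K-dependent protein of the cartilage matrix. It read 4.51, 4.84 and 4.69 in mutants, against 5.67, 4.35 and 4.64 in controls. Control 1 was the highest array and mutant 2 the next, at a level near the lower quartile. Control 2 lay below all mutants and control 3 among them. The log2 difference was -0.21 (SE 0.33, limma adjusted p = 0.908).

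Cytl1, a secreted cytokine-like protein expressed in cartilage, had the widest range of the 10 genes. It read 8.88, 9.49 and 8.21 in mutants, against 10.92, 7.82 and 9.40 in controls. The highest and the lowest array were both controls and were 8.56-fold apart, so the mutants lay inside the control range. The mutants averaged 8.86 ± 0.64 (SD, n = 3) and the controls 9.38 ± 1.55. The log2 difference of -0.52 had an SE of 0.76 and a 95% interval from -2.35 to 1.31 (limma adjusted p = 0.896).

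Sox9 encodes the regulator of the cartilage programme and is also expressed outside cartilage, for instance at the epithelial tips of the embryonic lung. It read 5.95, 5.83 and 6.63 in mutants and 6.89, 6.01 and 5.70 in controls. Control 1 and mutant 3 stood above the other 4 arrays, which lay between 5.70 and 6.01. The log2 difference was -0.06 (95% interval -0.89 to 0.78, limma adjusted p = 0.977).

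Promoter sequence was looked up for all 10 genes, and RefSeq entries on GRCm38.p6 were found for 7 of them, Acan, Hapln1, Matn1, Matn3, Ucma, Cytl1 and Chad. The 250 bases before the start and the first base of the transcript are shown for Acan, Ucma and Cytl1, the genes with the clearest peak on control 1, and for Chad, all on the plus strand. They lie at chr7:79052976-79053226 for Acan, chr2:4975872-4976122 for Ucma, chr5:37735269-37735519 for Cytl1 and chr11:94564797-94565047 for Chad. Capitals mark the first base of the transcript and the letters TATAAA.
Acan: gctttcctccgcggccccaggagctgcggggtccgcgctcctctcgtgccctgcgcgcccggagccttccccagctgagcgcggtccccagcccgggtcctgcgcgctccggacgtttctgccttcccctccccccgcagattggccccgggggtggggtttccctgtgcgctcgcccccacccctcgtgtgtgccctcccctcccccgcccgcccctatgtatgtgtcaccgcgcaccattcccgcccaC
Ucma: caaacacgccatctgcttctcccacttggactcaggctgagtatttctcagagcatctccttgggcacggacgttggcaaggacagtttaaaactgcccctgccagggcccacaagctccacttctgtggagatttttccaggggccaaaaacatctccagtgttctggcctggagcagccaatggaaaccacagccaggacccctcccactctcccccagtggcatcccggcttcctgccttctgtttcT
Cytl1: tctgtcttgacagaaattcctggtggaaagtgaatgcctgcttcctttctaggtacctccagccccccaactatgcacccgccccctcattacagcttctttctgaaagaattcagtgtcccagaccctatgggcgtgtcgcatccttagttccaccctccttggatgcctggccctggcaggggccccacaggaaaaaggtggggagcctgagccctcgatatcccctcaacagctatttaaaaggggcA
Chad: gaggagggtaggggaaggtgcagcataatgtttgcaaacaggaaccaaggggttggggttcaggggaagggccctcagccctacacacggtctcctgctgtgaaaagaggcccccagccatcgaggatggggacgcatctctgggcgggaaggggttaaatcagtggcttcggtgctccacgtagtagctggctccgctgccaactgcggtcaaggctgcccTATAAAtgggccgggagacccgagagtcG

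TATAAA, searched on both strands in windows of 300 bases that reach 50 bases past the start, occurred in 1 of the 7 promoters, that of Chad, where it begins 28 bases before the start. It occurs in 13.6% of all 32851 promoter windows. AACAAT and ACAAAG, 2 forms of the core motif of SOX proteins, were each in 0 of the 7, against 10.7% and 18.7% of all windows, which says only that these letters are not in these windows. The GC content was 74.0% for Acan, 61.0% for Chad, 56.0% for Ucma and 55.0% for Cytl1.

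**Figure D1:**
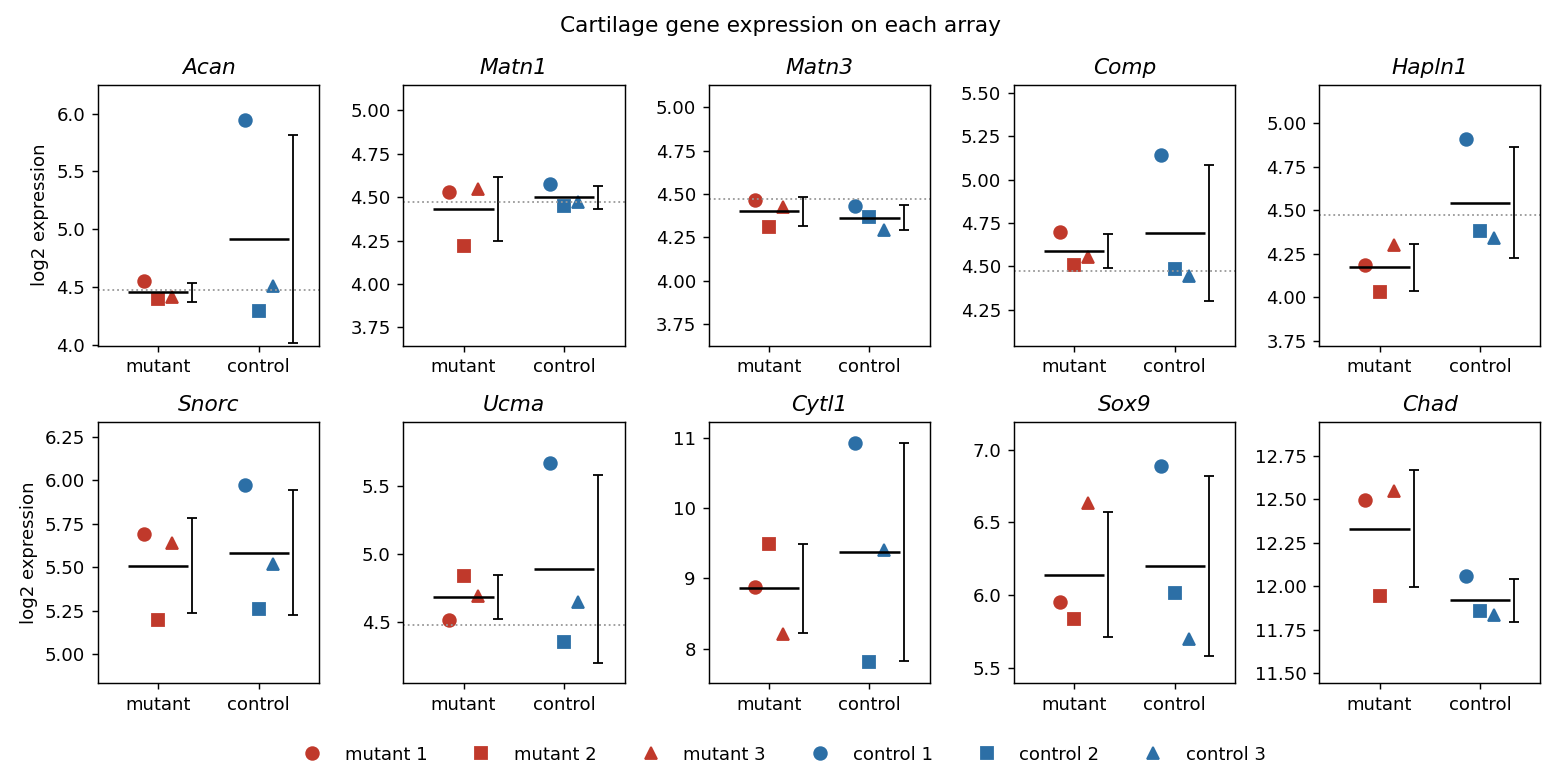
Log2 expression of the 10 cartilage genes on each array, with mutants left and controls right. Each point is an array (circle 1, square 2, triangle 3), the line is the group mean, the bar is the SD (n = 3), the dotted line is the mean lower quartile of the arrays, and each panel has its own vertical scale. Control 1 is the highest point for 8 genes, and Chad has 2 mutants on top.

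Control 1 carried the highest reading of 8 of the 10 genes, all but Matn3 and Chad, where 20.3% of all genes were highest on that array. It led by at least 0.5 on the log2 scale for Acan, Hapln1, Ucma and Cytl1, as it did for 1.34% of all genes. For Acan and Cytl1 the lead was at least 1, which held for 37 of 19938 genes. Matn1, by contrast, was highest on control 1 by only 0.03. Against the mean of controls 2 and 3, control 1 stood 4.95-fold higher for Cytl1, 2.92-fold for Acan, 2.26-fold for Ucma and 2.05-fold for Sox9. These are values of a single array, chosen after they were seen, and carry no test.

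Without control 1 the differences of Acan (0.05), Comp (0.12), Snorc (0.12), Ucma (0.19), Cytl1 (0.25) and Sox9 (0.29) were positive, and the median of the 10 genes was 0.12 in place of -0.09. Hapln1 (-0.19) and Matn1 (-0.03) stayed negative and Matn3 (0.07) and Chad (0.49) positive. None of the 10 passed limma's test on the 5 arrays, with adjusted p-values from 0.356 for Chad to 0.953 for Matn1. Limma then called 388 genes, 1.95% of those tested.

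**Figure D2:**
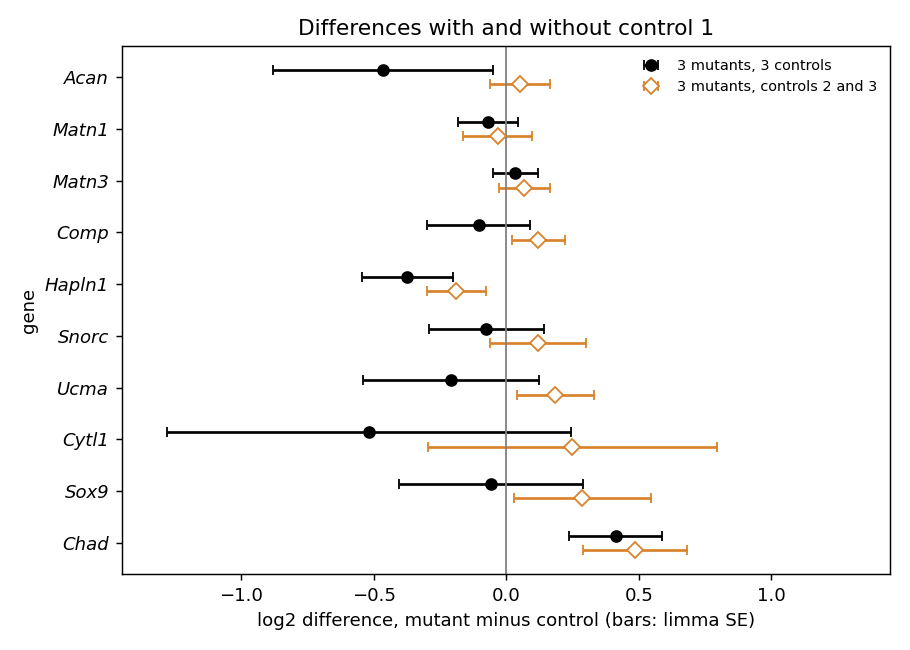
Log2 difference, mutant minus control, of each cartilage gene on the horizontal axis, with limma's standard error as bars. Filled circles use 3 mutants and 3 controls, and open diamonds leave out control 1. Of the 8 differences below 0 with all arrays, 6 lie above 0 without control 1, such as that of Acan (-0.46 with it and 0.05 without).

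The genes varied together to different degrees. Over the 6 arrays, Acan and Comp had the closest profiles (Pearson r = 0.96), followed by Acan and Ucma (0.94) and by Ucma and Cytl1 (0.90). Against the mean profile of the other 9 genes, r was 0.96 for Acan, 0.95 for Comp, 0.92 for Ucma and 0.84 for Snorc, but 0.47 for Matn1, 0.44 for Matn3 and 0.05 for Chad. The member closest to Chad was Matn3 (r = 0.79), the other gene not highest on control 1. Matn3 had an SD of only 0.07 over the 6 arrays, close to the lower quartile, so its profile cannot be told apart from background. These coefficients describe the same 6 arrays, and control 1 is the extreme point in most of them. Outside the list, the genes most like its mean profile, among those with an SD of at least 0.5 over the arrays, were Mypn, Inhba, Snap25, Akr1c18, Cntfr, Dgat2, Cpa3 and Mrap, with r from 0.99 for Mypn to 0.93 for Mrap. Mypn encodes a sarcomere protein of striated muscle, Cpa3 a mast cell protease and Dgat2 an enzyme of triglyceride synthesis. Mypn read 6.37, 6.22 and 6.47 in mutants, against 7.55, 5.93 and 6.13 in controls.

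The cartilage collagens were highest on control 1 for 5 of 7 genes, against 20.3% of all genes. Col2a1, the main collagen of cartilage, read 6.32, 6.13 and 6.20 in mutants and 6.34, 6.03 and 6.00 in controls, so control 1 was level with mutant 1. The lead was as slight for Col9a3, at 6.30 on control 1 and 6.29 on mutant 1. Col10a1, the collagen of hypertrophic cartilage, read 6.76, 6.50 and 6.57 in mutants and 7.14, 6.16 and 6.67 in controls. The differences of Col9a1, Col9a2, Col9a3, Col11a1 and Col11a2 lay within 0.06 of 0, and none of the 7 collagen genes passed. Their list median was 0.04.

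**Figure D3:**
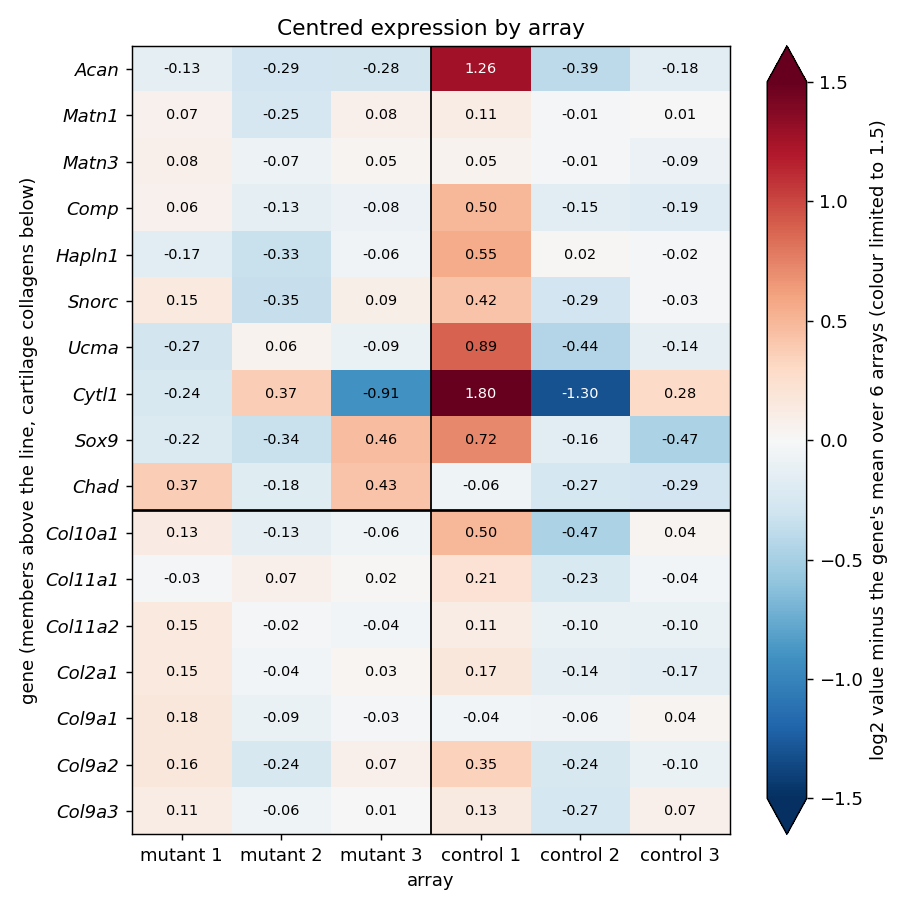
Log2 value of each gene minus its own mean over the 6 arrays, printed in each cell and shown by colour, with arrays in columns and genes in rows. Acan (1.26) and Cytl1 (1.80) are far above their mean on control 1, while Col2a1 (0.17) and Matn1 (0.11) are close to theirs.

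Other tissues that a dissected airway can carry were also uneven between the arrays. The 7 adipocyte genes averaged 7.38, 8.29 and 7.07 in mutants and 9.21, 6.72 and 7.36 in controls. The 8 cardiac muscle genes, known also from the wall of the pulmonary vein, averaged 10.11, 11.27 and 8.65 in mutants and 11.57, 9.16 and 9.85 in controls. Control 1 was thus highest for adipocyte and cardiac genes too, with 6 of 7 and 7 of 8 single genes highest there. Mutant 2, the next array for both lists, was also the next array for Cytl1 and Ucma, but it was among the lower arrays for Acan, Snorc, Hapln1 and Sox9. The tendon list averaged between 5.42 and 5.58 in mutants and between 5.35 and 5.77 in controls, again with control 1 on top, and the bone list averaged between 4.58 and 4.69 in mutants and between 4.54 and 4.62 in controls. The fibroblast, smooth muscle, mesothelial, submucosal gland and Schwann cell lists were highest on control 1 too. For smooth muscle the lead was small (10.79 against 10.76 on mutant 1). The bone, skeletal muscle, endothelial, alveolar, lymphocyte and airway epithelial lists were not highest there. The part of these tissues in the cartilage gene readings was not tested.

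**Figure D4:**
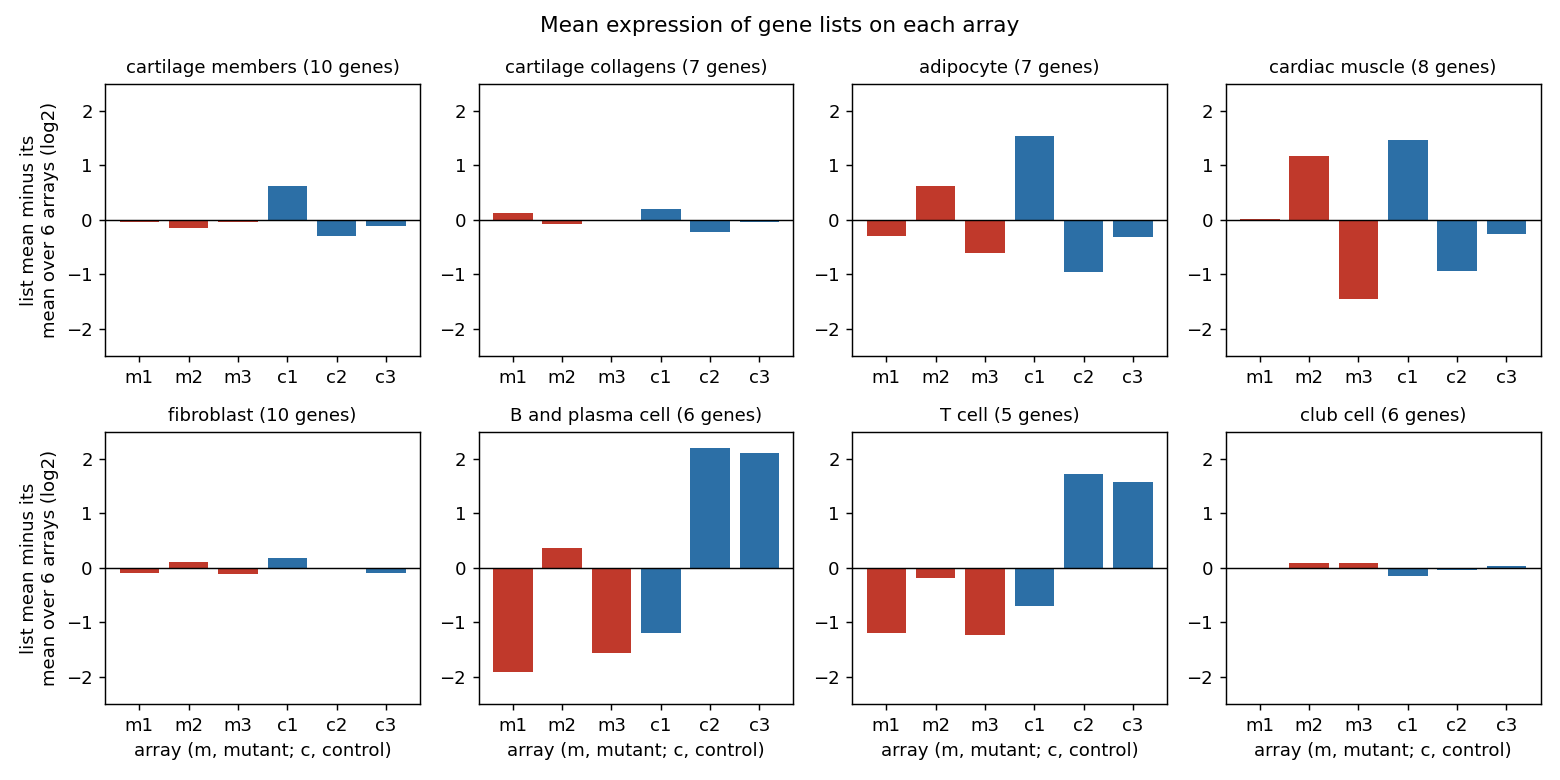
Mean log2 value of each gene list on each array minus the list's mean over the 6 arrays, with mutants (m1 to m3, red) left of controls (c1 to c3, blue). The cartilage members, cartilage collagens, adipocyte, cardiac muscle and fibroblast lists are highest on control 1. The B and plasma cell and T cell lists are highest on controls 2 and 3.

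Genes that act with the 10 in cartilage were examined from lists of matrix proteins, regulators, proteoglycan synthesis, matrix turnover, patterning signals and related families. With the collagens these came to 76 genes in 7 lists. None passed limma's test over all genes. At an unadjusted p under 0.05 there were 10, or 13.2%, against 10.1% of all genes, and their median log2 difference was 0.00. The genes given below had the smallest p-values of their lists, apart from Sox5, Sox6 and Clec3a, which were chosen after their values were seen.

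In the proteoglycan synthesis list, 8 of 10 genes had a lower mean in mutants and the list median was -0.25. Chst11, a sulfotransferase that modifies the chondroitin chains carried by aggrecan, read 6.74, 6.82 and 6.83 in mutants, against 7.32, 7.29 and 7.07 in controls. Its groups did not overlap, with all mutants lower, as for 5.64% of all genes. The log2 difference was -0.43 (SE 0.09, limma adjusted p = 0.208). Xylt1, the xylosyltransferase that starts these chains, differed by -0.41 (adjusted p = 0.413), the sulfotransferase gene Chst3 by -0.55 (0.515) and the sulfate transporter gene Slc26a2 by -0.39 (0.554). For Xylt1 and Chst3 the highest readings were those of controls 2 and 3, the arrays that also led the B and T cell lists, and control 1 lay at 6.45 and 5.72, within the range of the mutants. The part of lymphocyte content was not tested.

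Among patterning signals, Bmp4, a growth factor that takes part in forming tracheal cartilage, read 9.18, 9.03 and 9.23 in mutants, against 8.58, 8.05 and 8.40 in controls. Every mutant lay above every control, and the log2 difference of 0.81 (SE 0.15) did not pass limma's test (adjusted p = 0.138). Groups without overlap, in either direction, were found for 2985 of 19938 genes. Shh, the epithelial signal that patterns tracheal cartilage, read 6.12, 5.63 and 6.10 in mutants and 6.21, 6.57 and 6.75 in controls, a difference of -0.56 (adjusted p = 0.415). Wls, needed for Wnt secretion, differed by 0.20 and the receptor gene Fgfr2 by 0.18. The list median was 0.03, with 7 of 12 genes above 0.

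Among the 13 measured chondrocyte regulators, Runx3, a transcription factor that also acts in T cells, had the smallest p. It read 6.35, 6.08 and 5.94 in mutants, against 6.40, 8.11 and 7.79 in controls, a difference of -1.31 (limma adjusted p = 0.395). The SOX family gene Sox8 differed by -0.70 and the BMP receptor gene Bmpr1b by 0.55, without passing. Sox5 and Sox6, the partners of SOX9 in chondrocytes, differed by 0.07 and -0.14. In the list of other cartilage matrix genes Mgp, which encodes an inhibitor of calcification, differed by -0.23, the matrilin gene Matn4 by 0.23, Cilp by -0.67 and the link protein gene Hapln3 by -0.29. For Cilp, Hapln3 and Sox8 the highest readings were those of controls 2 and 3. Control 1 lay within the range of the mutants for Cilp (5.13) and Hapln3 (4.64), and for Sox8 read 5.93, against 5.91 on mutant 1. The part of lymphocyte content in these 3 genes was not tested. Clec3a, a lectin of cartilage, read 5.54, 5.37 and 5.19 in mutants and 6.28, 5.24 and 5.41 in controls, with control 1 highest as for Acan. In the turnover list Adamts15, a protease able to cleave proteoglycans of the aggrecan family, differed by 0.45 (adjusted p = 0.339), and the aggrecanase gene Adamts4 by 0.17.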

How the data were processed

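Total RNA of 6 airway samples was hybridised to Affymetrix arrays. The authors deposited a log2 value for each probe set on each array. Oligo, RMA and limma were used, per the submitters' processing notes, which give no version. Joint normalisation of the arrays is not stated.

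The platform annotation gave 1 symbol for 21789 of 35556 rows, and the highest row per gene left 19938 genes. Mutant and control arrays were compared with limma 3.58.1 in R 4.3.3 (lmFit and eBayes, genotype as the only term, no filter), two-sided, with Benjamini-Hochberg adjustment over all genes and a threshold of 0.05. The fit was tested on data simulated with independent noise per gene, which carry no deviation shared by the genes of an array. The number of arrays limits the precision. The members and gene lists were chosen with earlier results of these data known. Genes named were the 10 members, the cartilage collagens, up to 4 genes of each other list by p, and the 8 closest profiles, leaving out predicted genes. A few further genes, said to be so where they stand, were picked after their values were seen. Whether replicate numbers shared by both groups pair the arrays is not stated. Deviations from the group means correlated at 0.14, -0.09 and -0.04 for numbers 1, 2 and 3, which cannot exclude a pairing. Alternatives were another normalisation or centring, a filter on dim genes, the replicate block, array weights, row means, an intensity trend, robust eBayes, and leaving out arrays. Tables and figures were made with pandas 2.3.3 and matplotlib 3.10.9.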

Additional observations from a re-analysis of the deposited data

How the results depend on the processing

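None of the cartilage genes was called in 14 of the 15 other settings, and in the setting without control 1 and mutant 2 together 1 was, Chad. Those arrays held the highest control and the lowest mutant reading of Chad, so that call is no test of it. At an unadjusted p under 0.05 the count of cartilage genes, 0 of 10 above, was 2 with an intensity trend, Hapln1 and Chad. In that setting limma put 1972 of 19938 genes under 0.05. Every other setting gave 0 or 1. The median difference of the cartilage genes lay between -0.27 and 0.12. The count over all genes, 53, was 291 with array weights, 82 with an intensity trend, 963 without control 1 and mutant 2, and 9 to 388 when single arrays were left out. With the replicate block it was 0 (1945 genes at an unadjusted p under 0.05). The numbers only name the arrays, since mutant 1 tracked control 1 best but mutants 2 and 3 did not track their own number. The block changed no call on the cartilage genes. The median over all genes stayed between 0.00 and 0.05.

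Of 143 single-gene differences in other settings, 21 had the opposite sign, none of them past the threshold in either form. With array weights these were Matn1 (0.016), Comp (0.038), Snorc (0.068) and Sox9 (0.42). Without control 1 and mutant 2 they were Acan (0.079), Matn1 (0.076), Comp (0.16), Snorc (0.27), Ucma (0.11) and Sox9 (0.44). When single arrays were left out, the differences ranged from -0.77 to 0.052 for Acan, -0.13 to 0.039 for Matn1, -0.00084 to 0.081 for Matn3, -0.23 to 0.12 for Comp, -0.24 to 0.12 for Snorc, -0.48 to 0.19 for Ucma, -1.30 to 0.25 for Cytl1 and -0.31 to 0.29 for Sox9. Control 1 was the array behind 6 of the opposite signs. The lowest 40% filter left 3 of the 10 genes, Cytl1, Sox9 and Chad.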

Other observations

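Control 1 also stood apart for genes that are no cartilage genes. Of the 37 genes that led on it by at least 1 on the log2 scale, Akr1c18, a hydroxysteroid dehydrogenase, had the widest lead and read 5.16, 4.70 and 4.37 in mutants, against 6.97, 4.38 and 4.46 in controls. Ucp1, the uncoupling protein of brown fat, read 4.89, 6.68 and 4.82 in mutants and 8.42, 4.82 and 4.84 in controls. Cox6a2, a cytochrome oxidase subunit of heart and muscle, read 10.05, 10.09 and 8.52 in mutants and 11.80, 9.19 and 10.12 in controls. Hspa1a, a heat shock gene, read 8.43, 7.46 and 7.80 in mutants and 9.86, 8.14 and 7.84 in controls. These genes were picked out after their values were seen.

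Scx, a transcription factor gene of tendon progenitors, had the smallest p of the tendon list. It read 7.32, 6.96 and 7.42 in mutants, against 6.77, 6.56 and 6.70 in controls. All mutants lay above all controls, and the log2 difference of 0.56 (SE 0.14) did not pass limma's test (adjusted p = 0.266). Counting both directions, the groups did not overlap for 2985 of 19938 genes. Scx was the only gene of that list above 0: the other 5 of 6 lay below, with Thbs4 at -0.17, Fmod at -0.20 and Kera at -0.05, and the list median was -0.07.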
